A study of Rattus norvegicus with 16 samples.

Results

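Tight junctions and gap junctions are built from a defined set of proteins, and 49 of the 32623 genes in the count table are reported here as members of that set. They were taken by symbol, from genes named Cldn, Tjp, Gja, Gjb or Gjc followed by a digit, together with the cingulins Cgn and Cgnl1, the junctional adhesion molecules F11r, Jam2 and Jam3, and the MARVEL proteins Ocln, Marveld2 and Marveld3. Those reported are 28 claudins, 11 connexins, the zonula occludens scaffolds Tjp1 and Tjp3, 3 MARVEL proteins, 3 junctional adhesion molecules and 2 cingulins. At least 1 fragment was counted for 39 of them, and 10 had none in any library.

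Claudins form the strands of the tight junction, and each one sets whether the strand seals the space between cells or lets particular ions and water through. Occludin and the junctional adhesion molecules lie in the same membrane domain, while zonula occludens proteins and cingulins tie the strands to actin from the cytoplasm. Connexins assemble into gap junction channels that join the cytoplasm of neighbouring cells; they are not tight junction proteins, but several bind the same scaffolds. In the kidney, the claudins of the proximal tubule make a leaky, cation-permeable epithelium and those of the loop and distal nephron make tighter or more selective ones.

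The study asked how an acidic medium changes gene expression in 2 rat kidney cell lines grown together: NRK-52E, an epithelial line described as derived from the proximal tubule, and NRK-49F, a line of kidney fibroblasts. In all 4 groups the lines shared medium across a permeable filter, NRK-52E on the insert and NRK-49F in the well, were kept without serum for 24 h, and were then held for 48 h at pH 7.4 or at pH 6.0, which the sample labels write as 7 and 6. RNA sequencing of poly(A)-selected RNA gave 16 libraries, 4 for each line and pH: N1, N2, N5 and N6 are NRK-52E at pH 7.4, N3, N4, N7 and N8 are NRK-52E at pH 6.0, N9, N10, N13 and N14 are NRK-49F at pH 7.4, and N11, N12, N15 and N16 are NRK-49F at pH 6.0. Total counts ran from 16201084 to 34784862 fragments per library. Every culture held both lines, so no group shows either line grown alone.

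Levels below are FPM, the fragments of a gene relative to its library's total, corrected for library composition and put on the same scale in every library, and are given in the library order above or as mean ± SD with n = 4. They are not divided by gene length, so each gene is compared only with itself. A gene is called higher or lower where the adjusted p is below 0.01 in both edgeR's quasi-likelihood test and DESeq2, and the adjusted p printed is edgeR's, corrected over all genes tested. An exact permutation of 4 against 4 libraries cannot give a p below 0.0286, the value it has wherever the groups do not overlap in the members named here. Nothing in the labels says that the 4 libraries of a group came from separate cultures, so the p-values measure the spread between these samples, which may be technical. In these bulk libraries, fewer cells of a type and less RNA per cell cannot be told apart.

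The lines carried only part of the marker set their names imply. In NRK-52E, Epcam averaged 0.0221 FPM at pH 7.4, Cdh16 0.0221 FPM and Pax8 0.0102 FPM, while Esrp1 had no count. Of the proximal tubule markers, Slc34a1 and Hnf4a had no count in NRK-52E, and the endocytic receptor Lrp2 averaged 0.634 FPM at pH 7.4, and 0.0118 at pH 6.0. Aqp1, the proximal water channel, averaged 34.4 ± 7.64 FPM in NRK-52E at pH 7.4 and 26.4 ± 3.95 at pH 6.0. In NRK-49F it averaged 21.8 ± 3.88 and 41.6 ± 20.4 FPM. Cubn averaged 0.804 FPM in NRK-52E at pH 7.4, and 1.0 at pH 6.0. The transporters Slc22a6 and Slc22a8 went there from 0 counts to 119 and 32 over the group at pH 6.0. Neither passed the count filter, so not every pH 6.0 library reached its level. Some markers were higher in NRK-49F at pH 7.4. Ggt1 averaged 112 FPM there, against 1.53 in NRK-52E, Cubn 2.54 and Pax8 0.771, and Slc34a1 had 37 counts. Of 4 proximal tubule markers tested between lines at pH 7.4, 1 was called higher in NRK-52E and 2 lower. Of 5 tested epithelial markers, 2 were called higher in NRK-52E and 2 lower. Beside both counts, 33.3% of all tested genes were called higher in NRK-52E at pH 7.4 and 33.3% lower. The epithelial cadherin Cdh1 stood at 1.62 ± 0.221 FPM at pH 7.4, and 0.315 ± 0.157 at pH 6.0. The keratin Krt7 averaged 36.7 ± 4.69 FPM in NRK-52E and 0.463 ± 0.338 FPM in NRK-49F at pH 7.4, where Cdh1 had 0 counts in NRK-49F. The keratin Krt8, also an epithelial marker, was not restricted to the epithelial line. It averaged 430.4 ± 32 FPM in NRK-52E and 848 ± 70.4 FPM in NRK-49F at pH 7.4. The fibroblast marker Pdgfra averaged 0.286 ± 0.110 FPM in NRK-52E and 392 ± 54.7 FPM in NRK-49F at pH 7.4. Col1a1 also separated the lines: it averaged 23.6 ± 3.84 FPM in NRK-52E and 6205 ± 409.7 FPM in NRK-49F at pH 7.4. Col3a1 went the other way, with 6221 ± 95 FPM in NRK-52E and 458 ± 103 FPM in NRK-49F. Thy1 had no count in either line.

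Marker lists also moved with pH. All 4 tested genes of the 10-gene epithelial list fell in NRK-52E, where its summed level was 499.6, 464, 429.5 and 493 FPM at pH 7.4, and 367, 303, 337 and 324 at pH 6.0. In NRK-49F 1 of 3 tested genes of that list fell and 0 were called higher, and the sum was 826, 787, 950.3 and 843 FPM at pH 7.4, and 207, 220.4, 204 and 201 at pH 6.0. Every pH 6.0 sum lay below every pH 7.4 sum of the same line, most of each sum being Krt8. Cdh1 went the other way in NRK-49F, from 0 counts at pH 7.4 to 22 over the group at pH 6.0. Of the fibroblast list, 5 of 6 tested genes fell in NRK-52E and 3 of 7 in NRK-49F. Its sum in NRK-52E was 6786, 6823, 6677 and 6538 FPM at pH 7.4, and 3419, 3305, 2881 and 1995 at pH 6.0, most of it Col3a1. In NRK-49F the fibroblast sum was 7532, 7927, 6846 and 8140.4 FPM at pH 7.4, and 9711, 9059, 9703 and 8019 at pH 6.0, most of it Col1a1. Proximal tubule markers gave 1 lower of 4 tested in NRK-52E, and 1 higher (Ggt1) and 1 lower of 4 in NRK-49F. Their sum in NRK-49F was 129, 119, 146 and 157 FPM at pH 7.4, and 357, 381, 546 and 543 at pH 6.0, most of it Ggt1, while in NRK-52E it was 46.1, 42.4, 28.4 and 35.7 FPM at pH 7.4, and 29.5, 32.7, 25.3 and 35.7 at pH 6.0, which overlap. Loop and distal nephron markers gave 3 lower of 5 in NRK-52E and 1 lower of 3 in NRK-49F. Endothelial markers gave 1 higher and 1 lower of 3 in NRK-52E and 2 lower of 2 in NRK-49F, with Kdr and Emcn at 0 throughout. Leukocyte markers gave 2 higher of 4 in NRK-52E, and 1 higher and 1 lower of 2 in NRK-49F, with Ptprc and Adgre1 at 0 throughout. Of all tested genes, 28.2% were called higher and 28.5% lower in NRK-52E, and 18.4% and 19.4% in NRK-49F. These shifts went with the pH effects described next, and their part in the result was not tested.

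One library stood apart from its group. Among the NRK-52E libraries at pH 6.0, N8 differed from N3, N4 and N7 by a chi-square per degree of freedom of 43.7 to 92.2 over all genes, against 9.11 to 39.4 among those 3; this measure grows with depth, and pairs within the other groups gave 6.12 to 62.1. Its summed level of polarity genes was 1097 FPM, with 1371, 1499.8 and 1442 FPM in N3, N4 and N7. Its fibroblast marker sum was also the lowest of the 4, as listed above. Without N8, 7 of 18 tested members were called higher and 9 lower in NRK-52E, against 6 and 8 of 17 with it. Of all genes, 4352 were higher and 4562 lower of 13934 without it, against 3877 and 3916 of 13735. Members whose values rest on N8 are given with and without it.

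In NRK-52E junction genes were called in both directions at pH 6.0. Of the 17 members with enough counts to test, 6 were called higher at pH 6.0 and 8 lower, where 28.2% of all 13735 tested genes were called higher and 28.5% lower. The median log2 fold change was 0.12 over the tested members and 0.0014 over all genes. The groups did not overlap in 15 of the 17 members (7 higher and 8 lower at pH 6.0), against 62.9% of all genes. Cldn6, Cldn9, Cldn12, Tjp1, Tjp3 and Gjb5 rose, and Cgnl1, Cldn15, Cldn19, Cldn22, Ocln, Gja1, Gja5 and Gjc1 fell. F11r, Jam3 and Cgn were not called. A member can pass the count filter through 1 pH group alone, and such a member had to differ. Cldn9 did so, with 4 counts over the group at pH 7.4 and 53 at pH 6.0. So did Cldn6 and Gjb5 through pH 6.0, and Cldn19, Cldn22 and Gja5 through pH 7.4. The overlap and tests of these members carry the same limit, and the counts here describe the genes tested and no others.

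In NRK-49F every called member fell. Of 13 tested members, 0 were called higher and 5 lower at pH 6.0, where 18.4% of all 13339 tested genes were called higher and 19.4% lower. With an unadjusted p below 0.05 in edgeR, 1 member was higher (Gja4). DESeq2 alone called 2 higher of the 21 members it tested, beside 2965 of all 15639 genes. The median was -0.44 over the tested members and -0.0029 over all genes. The groups did not overlap in 7 of the 13, all 7 lower at pH 6.0, against 48.2% of all genes. Cldn1, Cldn12, Cldn15, Gja1 and Jam2 fell. Cldn1, Cldn15 and Cgn passed the count filter through pH 7.4 alone and so had to differ in level, though Cgn was not called. Cldn2, with 2 counts over the group at pH 7.4 and 61 at pH 6.0, stayed below the filter. The counts and median here therefore describe the genes tested and no others. Of the 10 members tested in both lines, 2 fell in both (Cldn15 and Gja1) and 1, Cldn12, went in opposite directions. No share of all genes called in both lines stands beside this count, so it describes these 10 members only.

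Most tested members were higher in the epithelial line at either pH. Every NRK-52E library came from the filter insert and every NRK-49F library from the well, so line and growth surface cannot be told apart. The labels do not say which libraries of the lines shared a culture. The line and interaction fits treat all libraries as independent. At pH 7.4, 11 of 17 tested members were called higher in NRK-52E and 6 lower, where 33.3% of all 14026 genes were called higher and 33.3% lower. The members higher in NRK-49F were Cldn1, Cldn12, Gja1, Gja4, Jam2 and Jam3. At pH 6.0, 10 of 17 were called higher in NRK-52E and 3 lower (Gja1, Gja4 and Jam2), where 28.6% of all 13796 genes were called higher and 31.3% lower. The groups did not overlap in 17 of 17 members at pH 7.4 and in 13 of 17 at pH 6.0, against 70.5% and 64.4% of all genes. Median log2 differences of NRK-52E over NRK-49F were 2.65 at pH 7.4 and 2.71 at pH 6.0, with 0.029 and -0.027 over all genes. A member can pass the count filter through 1 line alone, and such a member had to differ, so these medians describe the genes tested and no others.

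Whether the lines responded differently to acid was tested as an interaction, the NRK-52E effect minus the NRK-49F effect. Of 22 tested members, 5 were called higher and 5 lower, where 19.3% of all 14679 genes were called higher and 17.5% lower. Their values stand with each gene below.

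**Figure D1:**
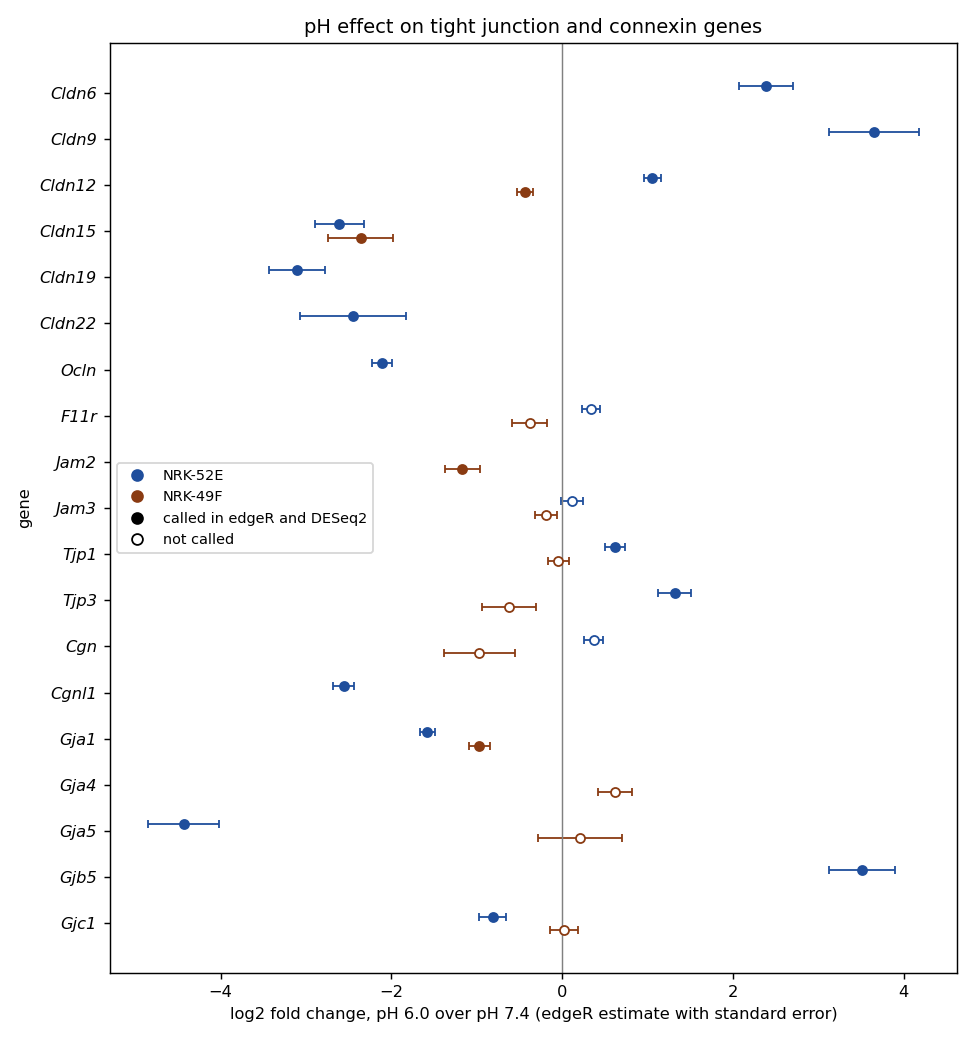
Log2 fold change at pH 6.0 over pH 7.4 (edgeR estimate, horizontal axis) for each tested member (vertical axis), with bars of 1 standard error, in NRK-52E (blue) and NRK-49F (brown). Filled points are called in both tools, from -4.43 for Gja5 to 3.65 for Cldn9 in NRK-52E; Cldn1, without a count at pH 6.0 in NRK-49F, is not drawn.

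Of the claudins, 6 were testable in NRK-52E (3 higher, 3 lower) and 3 in NRK-49F (3 lower), beside 28.2% of all genes higher and 28.5% lower in NRK-52E and 18.4% and 19.4% in NRK-49F, and each of these directions held with library totals or DESeq2's size factors as the scaling. Cldn15 (ENSRNOG00000001419, chromosome 12) encodes a claudin that forms cation-selective pores, best known from the intestine. Its NRK-52E libraries read 287, 252, 234 and 260.5 FPM at pH 7.4, and 26.3, 33.3, 36.2 and 75.1 at pH 6.0. In NRK-49F they read 2.06, 2.27, 1.84 and 1.07 FPM at pH 7.4, and 0.354, 0.199, 0.292 and 0.500 at pH 6.0. Every acid library lay below every control library of its line, and N8 was the highest of its group. The mean was 6.05-fold lower at pH 6.0 in NRK-52E, a log2 fold change of -2.61 (SE 0.29, adjusted p = 1.57e-05). Without N8 the log2 fold change was -3.04. In NRK-49F the mean was 5.38-fold lower, a log2 fold change of -2.36 (SE 0.38, adjusted p = 0.000247). The interaction was -0.31 with a 95% interval of -1.47 to 0.85 and was not called. Between lines the mean was 143-fold higher in NRK-52E at pH 7.4 and 127-fold higher at pH 6.0.

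Cldn12 (ENSRNOG00000039862, chromosome 4) encodes a claudin without the usual PDZ-binding end, linked to calcium permeability, and it was the member with opposite directions. Its NRK-52E libraries read 32.6, 31.2, 34 and 30.9 FPM at pH 7.4, and 72.8, 69.1, 72.5 and 57.1 at pH 6.0. The NRK-49F libraries read 92.1, 87.7, 83.3 and 76.1 FPM at pH 7.4, and 68.8, 61.1, 58.6 and 64.3 at pH 6.0. Acid libraries were all higher in the epithelial line and all lower in the fibroblast line, so that the lines, apart at pH 7.4, overlapped at pH 6.0 through N8; N3, N4 and N7 lay above every acid NRK-49F library. The change in NRK-52E was 2.11-fold, a log2 fold change of 1.06 (SE 0.099, adjusted p = 5.06e-06). The change in NRK-49F was a log2 fold change of -0.44 (SE 0.096, adjusted p = 0.00221), and it was no longer called without N15 (-0.39, adjusted p = 0.011). The interaction was 1.48 (SE 0.14, adjusted p = 1.34e-07). At pH 7.4 NRK-49F stood 2.64-fold above NRK-52E, a log2 difference of -1.31 (adjusted p = 4.12e-08). At pH 6.0 the log2 difference was 0.087, with a 95% interval of -0.14 to 0.31, and was not called; without N8 it was 0.16 (adjusted p = 0.156).

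Cldn19 (ENSRNOG00000007922, chromosome 5) encodes the partner of Cldn16 in the cation-selective strands of the thick ascending limb. NRK-52E libraries read 2.81, 2.46, 2.98 and 2.57 FPM at pH 7.4, and 0.122, 0.360, 0.492 and 0.235 at pH 6.0. The groups did not overlap, and the mean fell 8.95-fold, a log2 fold change of -3.11 (SE 0.33, adjusted p = 1.16e-05). In NRK-49F the gene had 21 counts over the pH 7.4 group and 0 at pH 6.0, below edgeR's count filter there. Its line difference at pH 7.4 was 3.40 on the log2 scale, and 4.0 without N14. Cldn16 itself had no count.

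Cldn6 (ENSRNOG00000003648, chromosome 10) encodes a claudin of embryonic and newborn epithelia, the kidney included. NRK-52E libraries read 0.375, 0.492, 0.497 and 0.286 FPM at pH 7.4, and 3.18, 2.11, 1.97 and 1.74 at pH 6.0. Every acid library lay above every control library, and the rise was 5.46-fold, a log2 fold change of 2.39 (SE 0.31, adjusted p = 5.7e-05). Its interaction was 3.58 (SE 0.87, adjusted p = 0.00228); without N14 it was 2.85 (adjusted p = 0.0314) and not called, and NRK-49F had 13 and 7 counts over its pH 7.4 and pH 6.0 groups. Cldn9, the adjacent gene on chromosome 10 and also a claudin of the newborn kidney, rose from 4 counts over the NRK-52E group at pH 7.4 to 53 at pH 6.0, a log2 fold change of 3.65 (SE 0.52, adjusted p = 0.000109). Cldn22, a claudin of little-known function, fell from 72 to 12 counts, a log2 fold change of -2.45 (SE 0.62, adjusted p = 0.00448). That call was lost without N1, N2, N3 or N7, with adjusted p-values of 0.0112, 0.0166, 0.0155 and 0.0126. Without N8 the estimate for Cldn22 was -3.26.

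Cldn1 (ENSRNOG00000001926, chromosome 11) encodes a sealing claudin and was counted almost only in the fibroblast line. NRK-49F libraries had 10, 15, 21 and 28 fragments at pH 7.4 and 0, 0, 0 and 0 at pH 6.0. Set against a floor of 3 counts over the group, the level was at least 31.8-fold lower at pH 6.0 (adjusted p = 0.000112). NRK-52E had 2 counts at pH 7.4 and 0 at pH 6.0, and the count ratio of NRK-52E to NRK-49F at pH 7.4 was 0.0231 with a 95% counting interval of 0.00275 to 0.0865. Both of those fragments came from N2. Without N2 the fitted line difference moved from -5.03 to -7.26. Counting intervals and floors cover counting error only.

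The claudins that mark the proximal tubule in the kidney were nearly absent. Cldn2 (ENSRNOG00000054495, chromosome X) encodes its cation and water pore, and no library had more than 30 counts. NRK-52E libraries read 0.375, 0.656, 0.497 and 0.524 FPM at pH 7.4, and 0, 0.135, 0 and 0.141 at pH 6.0. NRK-49F libraries read 0, 0, 0.132 and 0 FPM at pH 7.4, and 0.221, 0.199, 0.747 and 0.938 at pH 6.0. Acid libraries were all lower in NRK-52E and all higher in NRK-49F. Below edgeR's count filter in either line alone, Cldn2 passed it in the interaction, which was -6.94 (SE 1.21, adjusted p = 0.000124). The NRK-49F group at pH 7.4 held 2 counts, both from N13, and the count ratio of pH 6.0 to pH 7.4 in that line was 23.6 with a 95% counting interval of 6.26 to 199. Without N13 the interaction estimate was -9.47. Cldn10, which encodes the anion pore of the same segment, had at most 2 counts in a library. Among claudins of the distal nephron, Cldn3, Cldn4 and Cldn7 reached 2, 7 and 1 counts at most, and Cldn8 had none. Cldn5, the claudin of endothelium, also had none.

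Ocln (ENSRNOG00000018297, chromosome 2) encodes occludin, a MARVEL protein that takes part in regulating the junction, and was the only tested gene of its family. NRK-52E libraries read 42.5, 38.6, 40.5 and 43 FPM at pH 7.4, and 10.3, 8.14, 10.4 and 9.83 at pH 6.0. All acid libraries lay far below the controls, with little spread within either group. The fall was 4.26-fold, a log2 fold change of -2.11 (SE 0.12, adjusted p = 2.43e-07). In NRK-49F it had 0 counts at pH 7.4 and 0, 5, 2 and 0 at pH 6.0. Against a floor of 3 counts over the group, NRK-52E was at least 1064-fold higher at pH 7.4. At pH 6.0 it was 97.5-fold higher, a log2 difference of 6.95, and 8.38 without N12. The interaction was -5.88 (SE 1.53, adjusted p = 0.00489), which rests on those 7 NRK-49F counts. Its call was lost without N12 (-4.51, adjusted p = 0.0271), without N14 (adjusted p = 0.0106) and without N15 (adjusted p = 0.0109). Marveld2, which encodes tricellulin of the corners where cells meet, reached 3 counts at most, and Marveld3 reached 1.

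The junctional adhesion molecules split by line. F11r (ENSRNOG00000004414, chromosome 13), the epithelial one, read 241, 227, 212 and 213 FPM in NRK-52E at pH 7.4 and 257, 262, 289 and 336 FPM at pH 6.0. The NRK-49F libraries read 11.7, 10.1, 6.39 and 8.46 FPM at pH 7.4, and 8.72, 6.23, 5.95 and 7.48 at pH 6.0. In NRK-52E the acid libraries all lay above the controls, with N8 the highest, while in NRK-49F the groups overlapped. Neither effect was called by both tools: a log2 fold change of 0.34 (SE 0.10, adjusted p = 0.0138) in NRK-52E, where DESeq2 alone called it with all libraries (adjusted p = 0.00874), and -0.38 (adjusted p = 0.136) in NRK-49F. Without N8 the NRK-52E value was 0.24 (adjusted p = 0.0128). The interaction, 0.71 (adjusted p = 0.0102), was not called either. It was called without N4 (adjusted p = 0.00903), N11 (0.0045) or N13 (0.00168). F11r was 24.4-fold higher in NRK-52E at pH 7.4 and 40.3-fold higher at pH 6.0.

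Jam2 (ENSRNOG00000042848, chromosome 11), best known from endothelium and stroma, had the reverse distribution. NRK-49F libraries read 23.7, 20.01, 20.7 and 25 FPM at pH 7.4, and 7.22, 7.30, 10.7 and 14.6 at pH 6.0. The groups did not overlap, and the fall was 2.24-fold, a log2 fold change of -1.17 (SE 0.20, adjusted p = 0.000473). NRK-52E had 12 and 5 counts over its groups. NRK-49F was 170.4-fold higher at pH 7.4 and 151-fold higher at pH 6.0, where the log2 difference of -7.28 was -8.09 without N8. Jam3 (ENSRNOG00000009149, chromosome 8), found in many cell types, read 21.7, 21.1, 19 and 23.1 FPM in NRK-52E at pH 7.4 and 20.9, 20.3, 26.7 and 25.2 FPM at pH 6.0. In NRK-49F it read 29.8, 31.9, 30.4 and 24.8 FPM at pH 7.4, and 26.9, 20.8, 28.2 and 27.6 at pH 6.0. The pH groups overlapped in both lines, and neither log2 fold change was called, at 0.12 (95% interval -0.14 to 0.37) in NRK-52E and -0.19 (95% interval -0.43 to 0.057) in NRK-49F. Its line difference at pH 7.4, -0.38 (adjusted p = 0.00654), was called, with the adjusted p between 0.0118 and 0.0227 without N1, N2, N5, N9, N10 or N13, and with library totals as the scaling, which moved the median of all genes by about as much, it was -0.07 (adjusted p = 0.539).

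The zonula occludens scaffolds bind claudins on one side and actin on the other. Tjp1 and Tjp3 rose in NRK-52E, and with library totals as the scaling, which shifted the all-gene median by about as much, Tjp1 was no longer called (0.41, adjusted p = 0.0178). Tjp1 (ENSRNOG00000011077, chromosome 1) read 341, 398, 395 and 351 FPM in NRK-52E at pH 7.4 and 542, 685, 627 and 464 FPM at pH 6.0. In NRK-49F it read 151, 141, 110.4 and 117 FPM at pH 7.4, and 146, 126, 113 and 123 at pH 6.0. Acid libraries of NRK-52E were all above the controls, N8 the lowest of them, and the NRK-49F groups overlapped. The rise in NRK-52E was 1.56-fold, a log2 fold change of 0.62 (SE 0.12, adjusted p = 0.000841), and 0.71 without N8. In NRK-49F the estimate was -0.045 (95% interval -0.28 to 0.19). The interaction of 0.66 (SE 0.18, adjusted p = 0.00558) was called with all libraries, but not when any 1 of N1, N3, N4, N6, N7, N9, N10, N12, N15 and N16 was left out, with adjusted p-values from 0.011 to 0.022 and estimates from 0.57 to 0.65. With library totals as the scaling the interaction was 0.42 (adjusted p = 0.0879) and not called.

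Tjp3 (ENSRNOG00000020501, chromosome 7), the scaffold most restricted to epithelia, read 19.4, 16.3, 17.7 and 15.9 FPM in NRK-52E at pH 7.4 and 53.2, 50.1, 45.1 and 26.8 FPM at pH 6.0. Acid libraries were all higher, with N8 well below the other 3. The rise was 2.53-fold, a log2 fold change of 1.32 (SE 0.19, adjusted p = 0.00011), and 1.49 without N8. NRK-49F libraries of Tjp3 read 1.31, 1.06, 1.05 and 1.86 FPM at pH 7.4, and 0.576, 0.862, 1.04 and 1.0 at pH 6.0. All acid libraries were lower there, and the change of -0.62 was not called (adjusted p = 0.118). The interaction was 1.93 (SE 0.34, adjusted p = 0.000151). Tjp3 overlaps Apba3 in the RefSeq gene table of the rat build GRCr8. The overlap is of whole genes, exons were not compared, and the counting used rn6. The counting did not separate strands as far as the methods say, so fragments of one may be counted for the other or left out. Apba3 averaged 33.3 ± 2.42 FPM at pH 7.4, and 42.5 ± 3.89 at pH 6.0 in NRK-52E, a log2 fold change of 0.33 that was not called (adjusted p = 0.0128). In NRK-49F, where Tjp3 is near 1 FPM, Apba3 averaged 33.8 ± 3.66 FPM at pH 7.4, and 51.9 ± 7.82 at pH 6.0 and was called higher (0.60, adjusted p = 0.0019). Its part in the Tjp3 values and interaction was not tested.

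Between lines Tjp1 and Tjp3 were higher in NRK-52E at both pH values. Tjp1 was 2.86-fold higher at pH 7.4 and 4.56-fold at pH 6.0. Tjp3 was 13.1-fold higher at pH 7.4 and 50.4-fold at pH 6.0. No library of NRK-49F reached the lowest NRK-52E library of the same pH for either gene.

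The cingulins are cytoplasmic adaptors that bring regulators of small GTPases to the junction, and they parted in NRK-52E. Cgnl1 (ENSRNOG00000054080, chromosome 8), encoding paracingulin, read 357, 400.1, 403 and 386 FPM at pH 7.4, and 56.2, 66.1, 64 and 79.6 at pH 6.0. All acid libraries were far below all controls. The fall was 5.81-fold, a log2 fold change of -2.56 (SE 0.12, adjusted p = 7.67e-08). NRK-49F had 8 and 9 counts over its groups. The fitted line difference at pH 7.4 was 11.87, and 13.34 without N9. Cgn (ENSRNOG00000020952, chromosome 2), encoding cingulin, read 72.8, 77.4, 73.7 and 74 FPM at pH 7.4, and 101, 109, 107 and 73.9 at pH 6.0 in NRK-52E. N3, N4 and N7 lay above every control, and N8 among the controls. The change was not called with N8, a log2 fold change of 0.37 (SE 0.11, adjusted p = 0.0136), and was called without it (0.48, adjusted p = 7.18e-05). In NRK-49F the libraries read 1.26, 0.910, 0.856 and 1.15 FPM at pH 7.4, and 0.133, 0.663, 0.682 and 0.657 at pH 6.0. The acid libraries there were all lower, and the change of -0.97 was not called (adjusted p = 0.0677). The interaction of Cgn was 1.32 (SE 0.34, adjusted p = 0.00343). That call was lost without N3, N9 or N14, at 1.19 (adjusted p = 0.0104), 1.23 (0.0107) and 1.26 (0.0108). With library totals as the scaling the interaction of Cgn was 1.09 (adjusted p = 0.0133) and not called. Cgn was 71.5-fold higher in NRK-52E at pH 7.4 and 183-fold higher at pH 6.0.

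**Figure D2:**
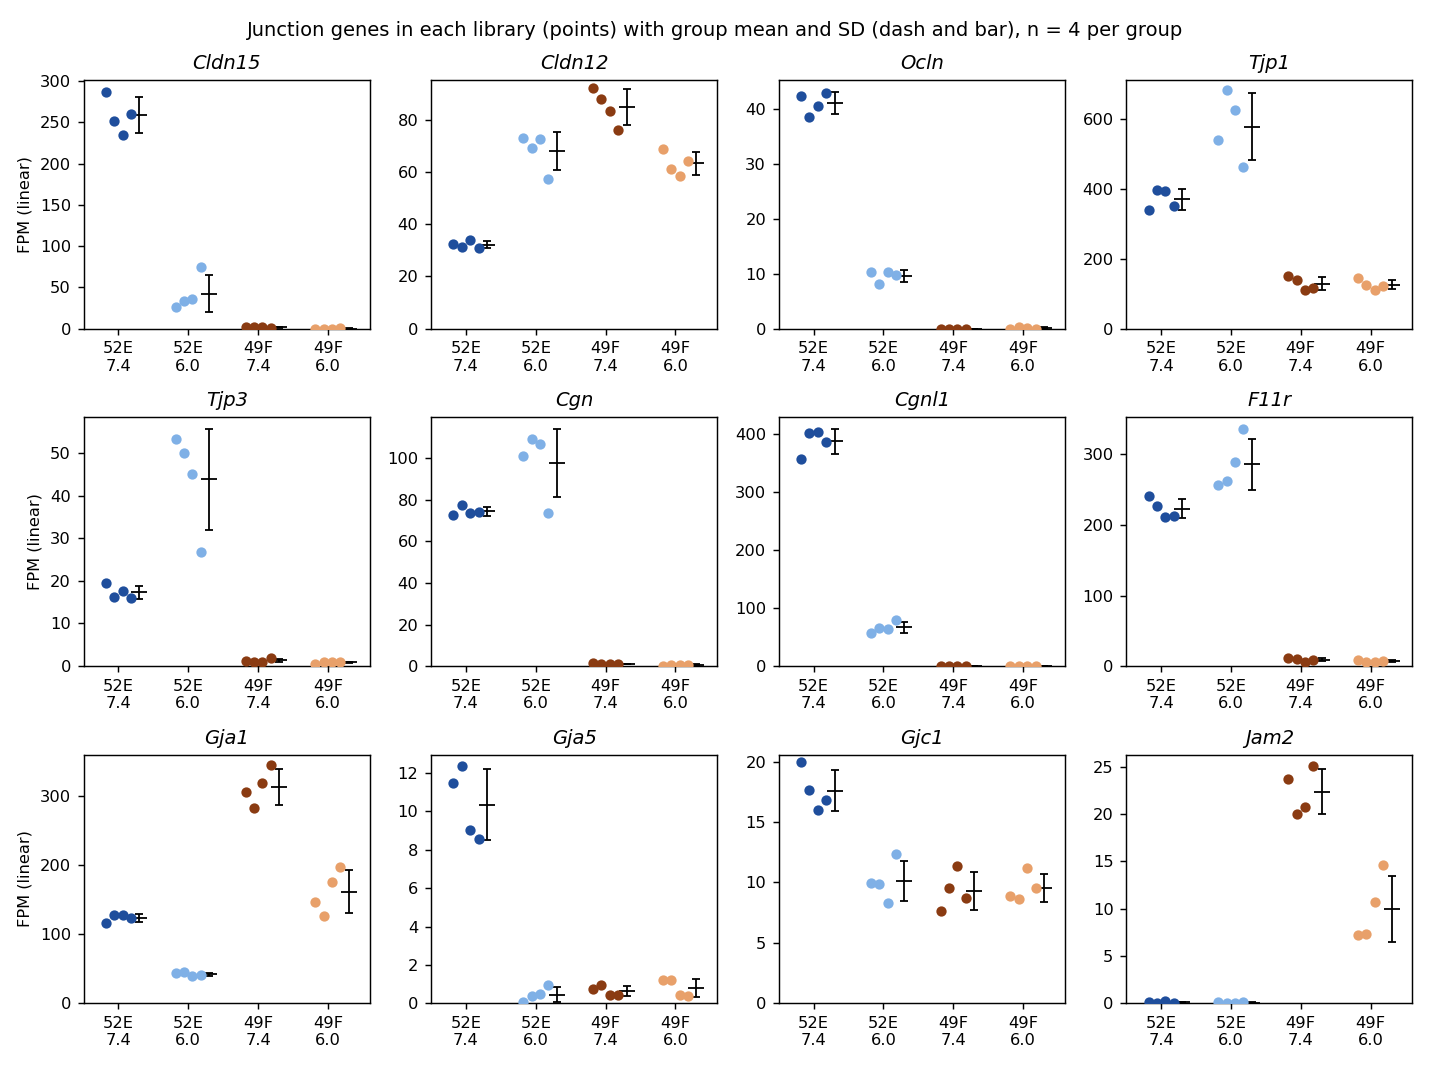
FPM (vertical axis, linear) of 12 members in each of the 16 libraries, grouped by cell line and pH along the horizontal axis, with points for libraries, dashes for group means and bars for SD (n = 4). Cldn15, Ocln and Cgnl1 fall in NRK-52E, Cldn12 moves in opposite directions in the lines, and among the acid NRK-52E libraries N8 is the highest for Cldn15 (75.1 FPM) and the lowest for Tjp3 (26.8 FPM) and Cgn (73.9 FPM).

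Of the connexins reported, 4 were tested in NRK-52E, where 3 fell and 1 rose. In NRK-49F 1 of 4 tested fell and 0 were called higher. Over all genes 28.2% were higher and 28.5% lower in NRK-52E, and 18.4% and 19.4% in NRK-49F. The connexin directions held with library totals and with DESeq2's size factors. Gja1 (ENSRNOG00000000805, chromosome 20) encodes the most widely expressed connexin. NRK-52E libraries read 116, 127, 127 and 124 FPM at pH 7.4, and 43.3, 44.7, 39.1 and 40.5 at pH 6.0. NRK-49F libraries read 305, 282, 318 and 344 FPM at pH 7.4, and 146, 127, 175 and 198 at pH 6.0. It fell in both lines without overlap, and the acid fibroblasts stayed in the range of, or above, the control epithelial cells. The effect was a log2 fold change of -1.58 (SE 0.086, adjusted p = 1.86e-07) in NRK-52E. It was -0.97 (SE 0.13, adjusted p = 5.43e-05) in NRK-49F. The interaction was -0.62 (SE 0.16, adjusted p = 0.00335). NRK-49F was 2.53-fold higher at pH 7.4 and 3.85-fold higher at pH 6.0.

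Gja5 (ENSRNOG00000017484, chromosome 2), a connexin of atrium and of endothelium, read 11.48, 12.3, 9.0 and 8.57 FPM in NRK-52E at pH 7.4 and 0.0612, 0.360, 0.492 and 0.940 FPM at pH 6.0. In NRK-49F it read 0.743, 0.960, 0.461 and 0.435 FPM at pH 7.4, and 1.20, 1.19, 0.422 and 0.375 at pH 6.0. The NRK-52E groups were far apart and the NRK-49F groups overlapped. The fall in NRK-52E was 22.3-fold, a log2 fold change of -4.43 (SE 0.41, adjusted p = 4.74e-06), and -4.98 without N8. In NRK-49F the change was 0.21 (95% interval -0.75 to 1.16). The interaction was -4.64 (SE 0.66, adjusted p = 1.66e-05). At pH 7.4 NRK-52E was 15.9-fold above NRK-49F, and at pH 6.0 the lines overlapped. Gja4 (ENSRNOG00000014357, chromosome 5), also a vascular connexin, was mainly counted in the fibroblasts. NRK-49F libraries read 5.94, 3.89, 5.20 and 4.66 FPM at pH 7.4, and 7.66, 8.02, 9.0 and 5.82 at pH 6.0, which overlap. The change was 0.62 (SE 0.19, adjusted p = 0.0184) and not called, and without N16 it was called (0.74, adjusted p = 0.00643). NRK-49F was 13-fold higher at pH 7.4 and 13.7-fold higher at pH 6.0, where the log2 difference of -3.77 was -4.39 without N8.

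Gjc1 (ENSRNOG00000048838, chromosome 10), a connexin of heart and vessel walls, read 19.96, 17.6, 16 and 16.8 FPM in NRK-52E at pH 7.4 and 9.97, 9.89, 8.32 and 12.3 FPM at pH 6.0. In NRK-49F it read 7.60, 9.50, 11.4 and 8.74 FPM at pH 7.4, and 8.90, 8.62, 11.2 and 9.51 at pH 6.0. The NRK-52E acid libraries were all lower and lay around the NRK-49F range. The change was a log2 fold change of -0.81 (SE 0.16, adjusted p = 0.000792) in NRK-52E and 0.026 (95% interval -0.30 to 0.35) in NRK-49F. Its interaction was -0.86 (SE 0.22, adjusted p = 0.00376), and without N15 it was -0.78 (adjusted p = 0.0107) and not called.

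Gjb5 (ENSRNOG00000059897, chromosome 5), a connexin of skin and other stratified epithelia, read 0.141, 0.205, 0.497 and 0.143 FPM in NRK-52E at pH 7.4 and 2.20, 3.33, 3.525 and 2.77 FPM at pH 6.0. All acid libraries were higher than all controls. The rise was 12-fold, a log2 fold change of 3.51 (SE 0.38, adjusted p = 1.51e-05). Gjb5 had 0 counts in all NRK-49F libraries, so at pH 6.0 NRK-52E was at least 101-fold higher against a floor of 3 counts over the group.

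The other members did not pass edgeR's count filter for pH in either line. Of these, 19 had at least 1 count and 10 had none: Cldn5, Cldn8, Cldn16, Cldn17, Cldn34a, Cldn34b, Cldn34c4, Cldn34d, Gja3 and Gjb6. The highest count in any library was 30 for Cldn2, 22 for Cldn11, 16 for Cldn18 and 7 for Cldn4. For the remaining 15, Cldn3, Cldn7, Cldn10, Cldn14, Cldn20, Cldn23, Cldn24, Cldn25, Cldn34e, Gja10, Gjb1, Gjb2, Gjc3, Marveld2 and Marveld3, it was 6 or fewer. Cldn11 in NRK-52E had 9, 10, 22 and 10 counts at pH 7.4 and 0, 0, 0 and 1 at pH 6.0, and Cldn2 was called in the interaction, as given above.

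Other junction genes were taken as lists of named partners, and the shares of all genes called higher and lower, 28.2% and 28.5% in NRK-52E and 18.4% and 19.4% in NRK-49F, are for comparison with each list. Of the cytoplasmic and membrane partners of tight junctions, 20 were tested in NRK-52E, with 6 higher and 6 lower (median log2 fold change 0.084), and 19 in NRK-49F, with 4 higher and 5 lower (median -0.12), close to those shares. In NRK-52E the adaptor Micall2 (2.5), the kinase Wnk4 (2.28) and Tjap1 (0.99) rose. The guanine nucleotide exchange factor Arhgef2, which cingulin binds (-1.05), the adhesion receptor Cxadr (-0.96) and the tricellular receptor Lsr (-0.94) fell. In NRK-49F Mpdz (0.97), Ybx3 (0.74) and Sympk (0.53) rose, and Amotl2 (-1.85), Arhgef18 (-0.77) and Arhgef11 (-0.75) fell. All of these are log2 fold changes of called genes at pH 6.0 over pH 7.4.

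Genes of the polarity complexes, which place the junction along the cell side, gave 3 higher and 8 lower of 18 tested in NRK-52E (median -0.23) and 2 higher and 3 lower of 18 in NRK-49F (median -0.19), where 28.2% and 28.5% of all genes were called in NRK-52E and 18.4% and 19.4% in NRK-49F. In NRK-52E the log2 fold changes were 1.06 for Lin7c, 0.60 for the kinase Stk11 and 0.55 for Mpp5, also named Pals1. Among genes with at least 5 FPM the largest falls were those of Crb2 (-1.97), Pard3b (-1.88) and Llgl1 (-1.13). In NRK-49F Lin7c (1.53) and Mpp5 (0.62) rose and Patj (-1.49), Pard3 (-0.51) and Llgl2 (-0.51) fell.

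Adherens junction genes gave 2 higher and 6 lower of 16 in NRK-52E (median -0.24), and 3 higher and 8 lower of 16 in NRK-49F (median -0.30), beside 28.2% and 28.5% of all genes in the first line and 18.4% and 19.4% in the second. The cadherin Cdh3 fell in the epithelial line (-0.78) and in the fibroblasts (-2.03). In NRK-52E the anchor Plekha7 rose (1.05), and the cadherin Cdh2 (-1.52) and beta-catenin, Ctnnb1 (-0.55), fell. In NRK-49F Afdn (0.89) and Nectin3 (0.82) rose, and Cdh11 (-1.90) and Jup (-0.96) fell. Desmosome genes gave 1 higher and 4 lower of 7 in NRK-52E (median -0.82), with Dsp (-5.24), Ppl (-1.41) and Pkp4 (-0.82) falling furthest among those with at least 5 FPM; Dsp had 11 counts over the group at pH 6.0, 8 of them in 1 library. In NRK-49F 1 desmosome gene rose, Pkp1 (0.47), and 2 of 5 tested fell (median 0.059), Ppl among them (-0.67). Of the pannexins, which form channels in single membranes, 2 were tested in NRK-52E (median 0.18) and 0 were called in either direction by both tools, and 0 were tested in NRK-49F. Pkp2 and Pecam1 were not analysed here.

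Transcription factors known to control junction genes gave 2 higher and 3 lower of 12 in NRK-52E (median -0.053) and 3 higher and 3 lower of 13 in NRK-49F (median -0.15), beside the 28.2% and 28.5% of all genes in NRK-52E and the 18.4% and 19.4% in NRK-49F. Grhl1 (1.41), of a family that activates epithelial junction genes, and Snai1 (1.10), a repressor of them, both rose in NRK-52E on the log2 scale. Tfap2a fell there (-1.07) and rose in NRK-49F (0.73). Zeb1 rose in NRK-49F (0.67), and Snai2 (-1.75), Cdx2 (-0.94) and Klf4 (-0.52) fell there.

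Position and promoter sequence are shared features that the choice by symbol did not use. All 49 members were found by symbol in the RefSeq gene table of the rat build GRCr8, and 9 overlap another gene there. The tested ones among them are Cgn, Ocln, Tjp1 and Tjp3, and the counting limit given for Tjp3 applies to each. Only Apba3 was examined among the genes that overlap them. Members within 50 kb of each other are the pairs Cldn6 and Cldn9, Cldn22 and Cldn24, Cldn3 and Cldn4, Cldn8 and Cldn17, Gja4 and Gjb5, Gjb2 and Gjb6, and Ocln and Marveld2. Of these, Cldn6 and Cldn9 both rose in NRK-52E, Gjb5 rose there while Gja4 was tested in NRK-49F only, and the other pairs had at most 1 tested gene.

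Promoter sequences from RefSeq, 250 bases before the gene start, were found for 16 of the 20 tested members. They were searched on both strands for 3 motifs, the last 2 of them added after the sequences were seen: CACCTG, the E-box bound by Snai and Zeb factors, TGANTCA, the AP-1 site, and GGGCGG, the GC box. Among all 33469 promoters in the table, 15.9% hold CACCTG, 6.34% TGANTCA and 30.5% GGGCGG. Of the 16 members, 4, 3 and 11 hold them. Of the 7 with a promoter that fell in NRK-52E, 1, 2 and 4 hold them, and of the 4 that rose, 2, 0 and 2. The members' windows outside every annotated gene number 6, and 4 of those, chosen after they were seen, are printed here: Cgnl1 and Gja5, with large falls in NRK-52E, Cldn1, without a count at pH 6.0 in NRK-49F, and F11r, not called for pH, which holds all 3 motifs. Those of Cldn22, which fell in NRK-52E, and Gja4 are not printed. Capitals mark motif matches, read on the gene's strand from 5′ to 3′, and CCGCCC is GGGCGG on the other strand. In Cgnl1 (chr8:81305599-81305847, minus strand, 249 bases) GGGCGG begins 23, 19 and 8 bases before the start, the first pair overlapping. Cldn1 lies at chr11:87926126-87926375, plus strand, Gja5 at chr2:187290977-187291226, plus strand and F11r at chr13:86405979-86406228, plus strand. A match describes letters in this window and is not evidence of binding.
Cgnl1: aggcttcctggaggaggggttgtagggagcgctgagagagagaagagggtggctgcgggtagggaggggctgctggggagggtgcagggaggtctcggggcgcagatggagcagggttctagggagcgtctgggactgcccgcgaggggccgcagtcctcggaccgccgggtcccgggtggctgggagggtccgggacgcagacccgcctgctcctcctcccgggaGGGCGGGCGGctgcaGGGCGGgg
Gja5: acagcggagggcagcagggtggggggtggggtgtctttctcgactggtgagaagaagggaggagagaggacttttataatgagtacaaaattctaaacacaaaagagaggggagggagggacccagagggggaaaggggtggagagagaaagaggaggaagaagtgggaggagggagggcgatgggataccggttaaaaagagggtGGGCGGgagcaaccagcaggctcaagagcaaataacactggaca
Cldn1: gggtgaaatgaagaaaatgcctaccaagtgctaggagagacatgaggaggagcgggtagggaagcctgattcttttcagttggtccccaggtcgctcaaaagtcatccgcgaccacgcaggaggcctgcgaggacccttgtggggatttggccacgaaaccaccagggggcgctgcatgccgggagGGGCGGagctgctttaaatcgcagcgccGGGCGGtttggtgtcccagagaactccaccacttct
F11r: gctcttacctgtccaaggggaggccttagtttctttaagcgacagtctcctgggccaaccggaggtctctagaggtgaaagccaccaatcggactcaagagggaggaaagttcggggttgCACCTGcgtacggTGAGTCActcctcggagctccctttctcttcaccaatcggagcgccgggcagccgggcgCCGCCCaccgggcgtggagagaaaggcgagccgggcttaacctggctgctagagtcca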

How the data were processed

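RNA from 16 libraries was measured. The authors deposited raw fragment counts per Ensembl gene, without normalization. Their methods name tophat2 for mapping read pairs to the rat genome rn6, and the deposited processing notes list HISAT2 2.1.0 instead. Fragments were counted over exons with featureCounts, multi-mapping fragments at each place and with no strand option named. No library was left out.

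FPM are edgeR's cpm with TMM factors over the 16 libraries. Each comparison of 2 groups was fitted to its 8 libraries, all genes together, with edgeR 4.0.16 (quasi-likelihood test, TMM, filterByExpr) and DESeq2 1.42.0 (Wald test) in R 4.3.3, with Benjamini-Hochberg adjustment over all genes tested. The interaction was fitted to all 16 libraries. Each standard error was obtained as the size of the log2 fold change over the root of its F statistic. The 95% intervals follow from it with the normal distribution. They make no allowance for the small number of libraries and may be too narrow. The exact permutation test is two-sided, on log2(FPM + 1). On simulated data, most changes of log2 size 2 were called, in the NRK-52E comparison and in the interaction, while most interactions of size 1 were not called. The check first required recovery at size 1 in the interaction, and was changed to size 2 after it failed, so an interaction that is not called does not exclude a difference of that size.

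Of 54 genes that fit the symbols, 5 are not reported here; counts and medians of members leave them out, and the fits and adjustment keep all genes. The members and lists were chosen with earlier results of these data known. Named members are those that pass the count filter in either line. Every library is given for those with a mean of at least 10 FPM in a group, and for called members with at least 2 FPM, in the lines where they reach 1 FPM. Cldn1, Cldn2, Cldn11 and Gja4 were added to these, the counts of Ocln in NRK-49F, and Krt7, Cubn, Slc22a6, Slc22a8, Ggt1 and Apba3, after their values were seen. Companion genes named are at most 3 rises and 3 falls per list and line among called genes with at least 5 FPM. Alternatives were each tool alone, an FDR of 0.05, DESeq2's size factors, library totals, all libraries in one fit, no filter, a filter at 1 CPM in 4 or more libraries, the second number of the library names as a covariate or fitted alone, and each library left out.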

Additional observations from a re-analysis of the deposited data

Results flagged for a closer look

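Members chosen for values by library were examined one at a time where a group averaged at least 2 FPM, with the gap between an extreme library and the next set against the range of its group of 4. In 0 of 40 such groups did the gap pass the limit that chance passes in about 1 in 20, or 2 of 40. This covers single genes only: over all genes N8 stood apart from N3, N4 and N7, and its Cgn level was 73.9 FPM, with 101, 109 and 107 FPM in those 3.

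For 10 of 22 tested members the pH effect differed between the lines in the interaction test, NRK-52E minus NRK-49F on the log2 scale, where 36.9% of all genes were called in either direction. The difference was 1.48 for Cldn12, which rose in one line and fell in the other. It was -0.62 for Gja1, which fell in both and further in NRK-52E. Tjp1 (0.66) and Tjp3 (1.93) rose in NRK-52E and were not called in NRK-49F. Gja5 (-4.64) and Gjc1 (-0.86) fell in NRK-52E and were not called in NRK-49F. Cgn (1.32) was called in neither line alone. For Cldn6 (3.58), Ocln (-5.88) and Cldn2 (-6.94), NRK-49F had at most a few counts per library at one pH or both, and the estimates depend on them.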

How the results depend on the processing

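No called member that could be tested changed sign under any alternative tried. Leaving out 1 library at a time, the members called in NRK-52E ranged from 6 to 7 higher and 7 to 9 lower. All genes ranged there from 3271 to 4352 higher and 3436 to 4562 lower, of 13879 to 13972 tested. In NRK-49F the members ranged from 0 to 1 higher and 4 to 5 lower. All genes ranged there from 1992 to 2457 higher and 2133 to 2589 lower, of 13420 to 13582. The line difference ranged from 11 to 12 higher and 5 to 6 lower at pH 7.4, and stayed at 10 and 3 at pH 6.0. Over all genes it ranged at pH 7.4 from 4227 to 4683 higher and 4325 to 4670 lower, of 14169 to 14260. At pH 6.0 all genes ranged from 3597 to 4443 higher and 3867 to 4820 lower, of 13924 to 14134. The interaction ranged from 3 to 6 members in either direction. All genes ranged there from 2015 to 2980 higher and 2260 to 2972 lower, of 14870 to 14955.

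In NRK-52E 6 members were called higher and 8 lower of 17. An FDR of 0.05 gave 8 and 8 there, and no filter 6 and 10 of 38. All 16 libraries in one fit gave 6 and 10 of 22, and DESeq2 alone 7 and 10 of 38. Of all genes, 4652 were higher and 4728 lower of 13735 at an FDR of 0.05, and 3944 and 4316 of 20514 with no filter. One fit gave 4021 and 4295 of 14679 genes, and DESeq2 alone 4357 and 4500 of 20511. In NRK-49F 1 member was called higher at an FDR of 0.05, with no filter and with all 16 libraries in one fit, and 2 by DESeq2 alone. Of all genes, 3437 of 13339, 2667 of 19879, 2480 of 14679 and 2965 of 15639 were higher there, in that order. The filter at 1 CPM left 3 lower in NRK-49F, of 8 members tested, beside 2417 of all 12466 genes. The second number in the library names, of unknown meaning, splits each line into sets of 4 libraries, fitted alone as an alternative chosen after seeing the data. Number 22 alone gave 2 higher and 6 lower of 20 members in NRK-52E, with 1433 of all 13952 genes higher and 1387 lower. Number 21 alone gave 4 higher and 8 lower of 17 there, with 2488 and 2756 of 13903 genes. In NRK-49F number 21 alone gave 0 higher and 2 lower of 14, with 999 of all 13861 genes higher and 981 lower. Number 20 alone gave 0 and 5 of 13 there, with 2327 and 2353 of 13379 genes. Each of these fits had 2 libraries per group, fewer than the main fits, and the cause of the losses was not tested. Of 17 members in NRK-52E, number 21 left 14 with the same sign and side of the threshold and number 22 left 11, and of 13 in NRK-49F, number 20 left 13 and number 21 left 8. The calls lost in NRK-52E under both numbers were Tjp1 (0.69 and 0.52, with 0.62 in all libraries) and Cldn9 (3.10 and 4.51, with 3.65). Those lost under 22 were Tjp3 (1.07, with 1.32), Cldn6 (2.19, with 2.39), Gjc1 (-0.68, with -0.81) and Cldn22 (-1.25, with -2.45). In NRK-49F number 21 lost Cldn12 (-0.39, with -0.44), Jam2 (-0.87, with -1.17) and Cldn15 (-1.85, with -2.36). The interaction of F11r was called with no filter (adjusted p = 0.00616), with the filter at 1 CPM (0.00922) and with the number as a covariate (0.0079).

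Values that changed sign were not called in any case. In NRK-52E Jam3, 0.12 with all libraries and TMM, was -0.092 with library totals and -0.097 in number 21. In NRK-49F number 21, Tjp1 was 0.037 and Gja5 -0.18. With 1 library left out, Tjp1 in NRK-49F ranged from -0.12 to 0.029, Gja5 from -0.10 to 0.48 and Gjc1 from -0.064 to 0.14. The line difference of Gjc1 at pH 6.0 ranged from -0.049 to 0.18. Interaction values are covered for members tested in both lines or called; members near 0 in one line (Jam2, Cldn9 and Gja4 among them) were left out after their signs were seen to change.

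Library totals moved the all-gene median from 0.0014 to -0.21 in NRK-52E, from 0.029 to 0.34 and from -0.027 to 0.12 between lines at pH 7.4 and pH 6.0, and from -0.014 to -0.25 in the interaction. The share of all called genes that were higher went from 49.7% to 37.6%, from 50% to 65.7% at pH 7.4 and from 52.4% to 33.8% in the interaction. The interactions of Tjp1 (0.66 to 0.42) and Cgn (1.32 to 1.09) moved by about as much as the all-gene median, and with that their calls were lost, which left 3 members called higher. The line difference of Jam3 at pH 7.4 (-0.38 to -0.071), no longer called, and its NRK-52E value above also moved by about as much as the median. With totals in place of TMM, 16 of 80 group means moved by more than 1 SD.

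No library of one pH group is paired by its label with a library of the other, and no paired test was run; the second number served as a covariate within each line. Counts of a few fragments per library limit Cldn2, Cldn9 and Cldn22, and the levels of genes near 0 in NRK-49F.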
